A study of Mus musculus with 96 samples.

Results

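The 10 genes described here encode factors of translation elongation and termination, measured in embryonic mouse neural tube: Eef1a1, Eef1b2, Eef1d, Eef1g, Eef2, Eef2k, Pabpc1, Tpt1, Gspt1 and Etf1. The set is a list of gene names chosen for their function, with earlier results of these data known. Each gene was represented by its transcript with the highest total count. They were 10 of 22446 genes held in the counts. The study compared wild-type embryos of the strain C3HeB with heterozygous C3HeB/Eif3cXs-J/+ embryos, which carry the Xs-J allele of Eif3c, the gene of a core subunit of translation initiation factor eIF3. All embryos were at E11.5, and each of the 4 groups (wild-type RNA, mutant RNA, wild-type footprints, mutant footprints) held 3 pools. Per the labels' protocols, neural tubes of 1 litter were dissociated with papain and the cells were split, some for poly(A) RNA-seq and the rest for ribosome profiling, which sequences the stretches of mRNA that ribosomes protect from RNase I. Whether wild-type and mutant pools of the same number came from the same litter is not stated in the labels. The labels name no promoter or Cre for the allele. The tests reflect only how far the 3 pools of a group differ, part of which may be technical.

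During elongation eEF1A (Eef1a1) brings aminoacyl-tRNA to the ribosome as a GTP-bound carrier, and the eEF1B complex (Eef1b2, Eef1d, Eef1g) reloads it with GTP. eEF2 (Eef2) then moves the ribosome along the mRNA codon by codon, and eEF2 kinase (Eef2k) phosphorylates and inhibits eEF2. At a stop codon eRF1 (Etf1) reads the stop signal and eRF3 (Gspt1), a GTPase, works with it to free the finished protein, while poly(A)-binding protein (Pabpc1) sits on the mRNA tail and binds both eRF3 and the initiation machinery. Many of these mRNAs, with Tpt1 (translationally controlled tumour protein) a classic case, start with a terminal oligopyrimidine (TOP) tract through which mTORC1 controls their translation.

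Depth, in units of 1000000 coding counts, was 7.21 to 13.1 in the RNA libraries. In footprints it was 17.3 to 59.3 in wild type and 11.3 to 14.9 in the mutant, so each mutant library was shallower than each wild-type library. The total of mutant footprint pool 1 came from 4 lanes in place of 8. Eif3c itself fell in the mutant from 496 ± 22.2 to 295 ± 6.19 CPM (counts per 1000000 coding counts) in RNA and from 747 ± 10.8 to 378 ± 23.9 CPM in footprints (SD, n = 3 each; edgeR adjusted p = 0.000696 and 0.0013). Neural progenitor and neuron markers were abundant in every library, and all 7 listed markers of each were above 1 CPM. Summed erythroid markers were highest in mutant pool 1, at 6450 CPM of RNA against 2764 to 3452 CPM in the other 5 RNA libraries and at 14256 CPM of footprints against 8122 to 9904 CPM in the others; endothelium markers were highest in the same pool in both assays. Summed mesenchyme markers were 1030 to 1202 CPM of footprints in wild type and 1204 to 1913 CPM in the mutant, with all 8 estimates positive, and overlapped in RNA. Summed neuron markers were 7404 to 8043 CPM of footprints in wild type and 6183 to 7099 CPM in the mutant. The part of these markers in the values given here was not tested. Surface epithelium markers summed to 2.30 to 8.20 CPM over all libraries.

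Parts of the coding sequence of most of these genes also occur in other annotated genes, mostly pseudogenes, and the extent differed widely. For each gene every 30-base window of the counted coding region, the length of a footprint, was looked up in all other annotated GENCODE transcripts. Windows found in no other gene made up 100% of the counted region of Eef2k and Etf1, 92.7% of Gspt1, 82.0% of Eef1d, 74.0% of Eef1b2, 71.1% of Eef2, 47.7% of Pabpc1, 12% of Eef1a1, 4.98% of Eef1g and 0% of Tpt1. Over 22362 genes the median was 100%, and 12.9% of genes had under 50% unique windows. With 50-base windows, the upper size of the RNA fragments, the shares rose to 27.0% for Eef1a1, 10.5% for Eef1g, 68.3% for Pabpc1 and 90.3% for Eef2 and stayed at 0% for Tpt1. Windows of Eef1a1 occurred in 22 other annotated genes, those of Eef1g in 10 and those of Tpt1 in 9, all of them pseudogenes, and the pseudogene Tpt1-ps3 held every window of Tpt1.

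The windows printed here show single footprint-sized stretches of the genes with the least unique sequence. The sequences are from GENCODE vM21 transcripts, placed on mm10, and are written 5′ to 3′ on the coding strand. The first of each gene is the window, of those lying in 1 exon, that occurs in the most other genes, and for Eef1g and Eef1a1 the next is the middle of the longest run of unique windows. The last is the stretch of Eef1a2, the paralog found mostly in neurons and muscle, at the coding position of the shared Eef1a1 window, with the bases that differ from Eef1a1 in capitals.
Tpt1, chr14:75846293-75846322, plus strand, exon 3, found in 4 other genes: acagtagtcaccggtgttgacattgtcatg
Eef1g, chr19:8972552-8972581, plus strand, exon 6, found in 6 other genes: tggttccttacctgcattaaccagccccag
Eef1g, chr19:8969364-8969393, plus strand, exon 4, unique: taagcaatgaggagctgcgaggaagtacgc
Eef1a1, chr9:78479279-78479308, minus strand, exon 6, found in 13 other genes: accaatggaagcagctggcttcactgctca
Eef1a1, chr9:78478829-78478858, minus strand, exon 8, unique: gtcgctttgctgttcgtgacatgaggcaga
Eef1a2, chr2:181149677-181149706, minus strand, exon 6: GccTCAggaGgcTgcCCAGttcacCTctca
A footprint over a shared window matches several genes equally well, while the Eef1a2 stretch differed from its Eef1a1 counterpart at 12 bases. Over the whole coding sequence Eef1a2 and Eef1a1 were 79.8% identical without gaps, and 99.9% of the 30-base windows of Eef1a2 were unique.

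Tpt1 was the extreme case. Over all 6 footprint libraries its trimmed coding region of 459 bases held 2 counts, 1 in wild-type pool 1 and 1 in wild-type pool 3, while its 5′ UTR held 10456 counts and its 3′ UTR 0. The same trimmed region held 1054 RNA counts over the 6 RNA libraries, against 12506 in the 5′ UTR. Its coding footprint level and its footprint to RNA ratio were therefore not measured here, and Tpt1 is left out of every count of genes over coding footprints, which run over 9 genes.

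**Figure D1:**
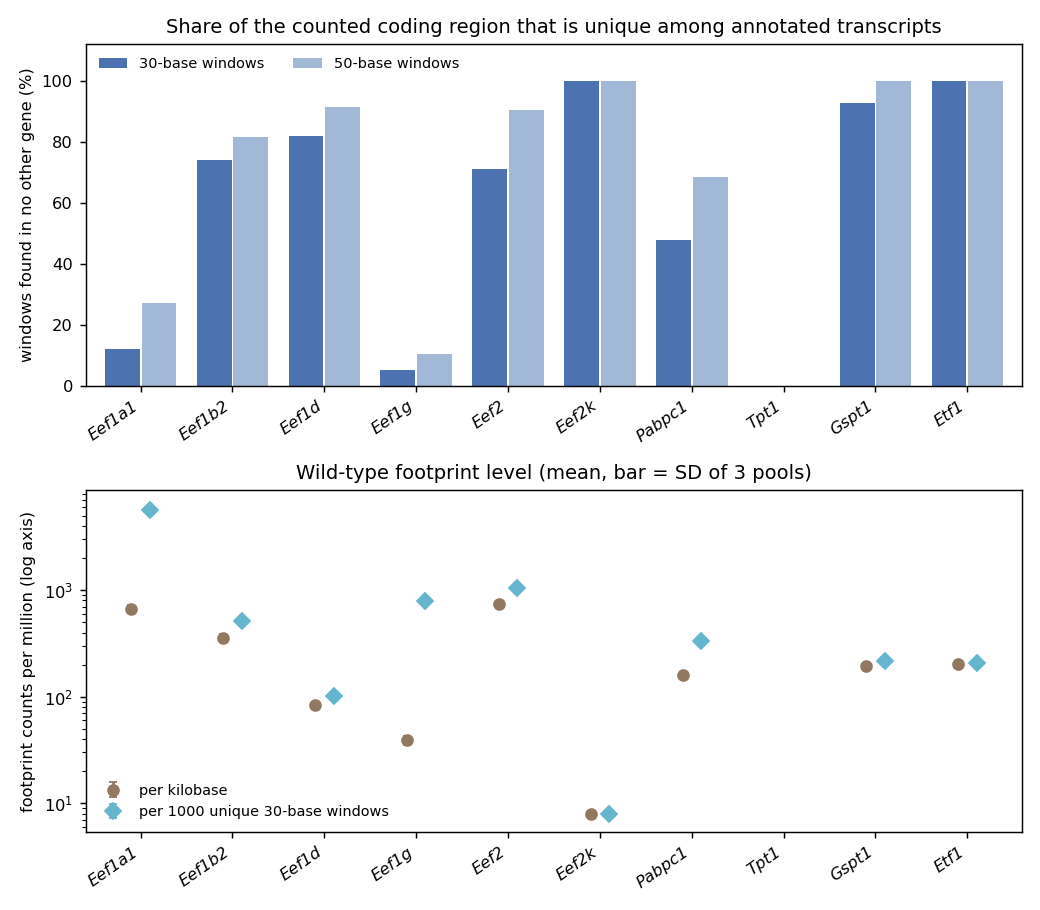
Top: percent of 30-base and 50-base windows of each gene's counted coding region found in no other annotated gene. Bottom, log axis: wild-type footprint CPM per kilobase and per 1000 unique 30-base windows, mean with SD of 3 pools (mostly smaller than the symbols). Tpt1 has no unique window, and Eef1a1 and Eef1g move furthest between the 2 scales.

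Per kilobase of counted coding region, wild-type footprints were highest for Eef2 at 743 ± 14.4 CPM and Eef1a1 at 668 ± 59.8 CPM (SD, n = 3), followed by Eef1b2 at 359 ± 24.9 CPM. The release factors were next, with Etf1 at 204 ± 9.47 and Gspt1 at 196 ± 2.04 CPM per kilobase, and these neighbours differed by less than the SD of Etf1. Pabpc1 stood at 158 ± 4.97, Eef1d at 82.8 ± 1.07, Eef1g at 38.8 ± 3.50 and Eef2k at 7.88 ± 0.342 CPM per kilobase. The kinase mRNA carried the fewest footprints per kilobase of the 9. Levels per unique window presume that reads matching several genes were not counted, a setting that is not known here; Tpt1, without a unique window of either length, still held 1054 RNA counts. Per 1000 unique 30-base windows, a scale chosen after the data were seen, Eef1a1 led with 5690.1 ± 509.6 CPM and Eef2 followed with 1057 ± 20.5 CPM. On that scale Eef1g rose from the eighth place to the third, at 799 ± 71.9 CPM, ahead of Eef1b2 at 509 ± 35.3 CPM, and Pabpc1, Gspt1, Etf1, Eef1d and Eef2k followed. Eef1d, a subunit of the same complex as Eef1g and Eef1b2, was at 103 ± 1.33 CPM per 1000 unique windows.

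In wild-type RNA Eef1g also moved most. Eef1a1 at 1123 ± 53.8 and Eef2 at 998 ± 21.3 CPM per kilobase were the 2 most abundant, and Eef1g stood at 47.5 ± 5.07 against 641 ± 48.4 for Eef1b2. The ratio of Eef1b2 to Eef1g RNA, 13.5 ± 1.02 per base, depended on the window length. It was 1.81 ± 0.136 per unique 50-base window, closer to the RNA fragments, and 0.934 ± 0.0702 per unique 30-base window. Per 1000 unique 50-base windows Eef1a1 and Eef2 again led, followed by Eef1b2 at 854 ± 64.5 and Eef1g at 473 ± 50.5 CPM. Eef2k was last on every scale, at 14.1 ± 0.499 CPM of RNA per kilobase.

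Counted over the set, none of the 10 genes passed adjusted p under 0.05 in RNA by edgeR's quasi-likelihood test, where 0.32% of 13422 genes did. At an unadjusted p under 0.05 there were 7 of 10 in RNA, against 17.4% of all genes tested. DESeq2 called 3 of the 10, Eef1a1, Eef1b2 and Pabpc1 (adjusted p = 0.0365, 0.0367 and 0.029), and limma-voom 0. Without mutant pool 2 edgeR called Eef1b2, Eef1d and Pabpc1, with log2 differences of 0.36, 0.26 and 0.26 (adjusted p = 0.00939, 0.0196 and 0.0303); without that pool 1521 genes passed in place of 43. The median RNA difference of the 10 was 0.16 on the log2 scale, beside 0.01 over all genes tested, and 8 of 10 estimates were positive. The CPM groups did not overlap for 5 genes higher (Eef1a1, Eef2, Pabpc1, Gspt1, Etf1) and 1 lower (Eef2k) in the mutant, where 10.9% and 11.2% of all genes did so.

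In footprints, none of 9 genes passed by edgeR, where 0.253% of 13438 genes did. At an unadjusted p under 0.05 there were 3 of 9 (Eef1a1, Eef1b2 and Eef1d), against 22.8% of all genes. DESeq2 called Eef1d (adjusted p = 0.0093), limma-voom called 0, and without mutant pool 2 edgeR called Eef1d at a log2 difference of 0.44 (adjusted p = 0.00464), among 2335 genes in place of 34. The median footprint difference was 0.11 beside 0.01 over all genes. There were 5 genes with mutant pools wholly above wild type (Eef1a1, Eef1b2, Eef1d, Eef2 and Gspt1) and 0 wholly below, where 14.4% and 14.8% of all genes did so. The highest of these footprint estimates, 1.28-fold for Eef1d, stood beside 0.506-fold for Eif3c.

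**Figure D2:**
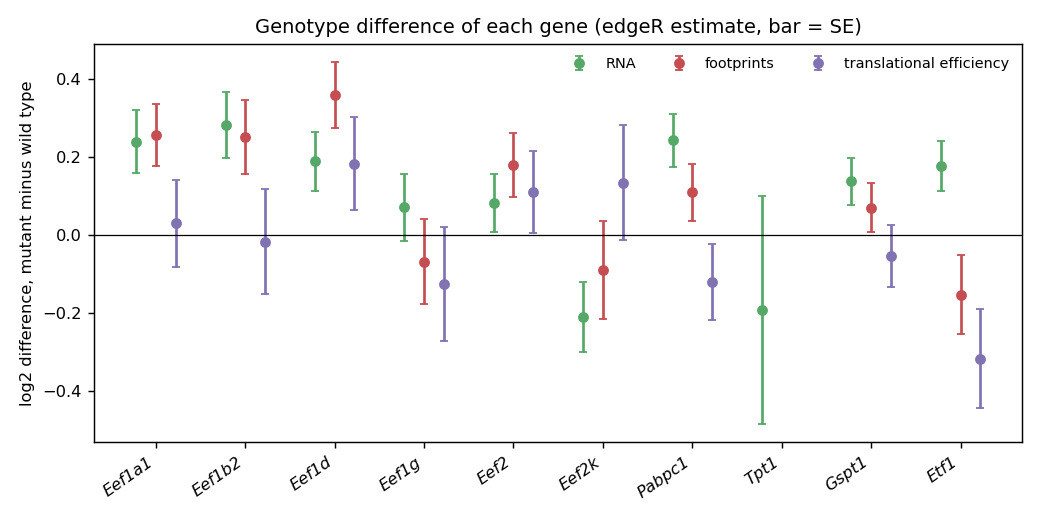
Log2 difference, mutant minus wild type, of each gene in RNA, in footprints and in translational efficiency (edgeR estimates, bars are SE). Eef1a1, Eef1b2, Eef1d and Pabpc1 are the highest in RNA or footprints, Etf1 has the lowest efficiency estimate, and none passed the threshold.

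Eef1a1, which encodes the carrier of aminoacyl-tRNA (chr9:78478449-78489151, minus strand, mm10), was the most abundant of the set in RNA per kilobase. Its RNA in the 3 wild-type pools was 1575, 1462 and 1442 CPM and in the 3 mutant pools 1922, 1672 and 1696 CPM. Each mutant pool lay above each wild-type pool. The edgeR estimate was a log2 difference of 0.24 ± 0.08 (SE; adjusted p = 0.154). Its footprints were 833, 851 and 979 CPM in wild type and 1092, 1072 and 1019 CPM in the mutant, again without overlap, with a log2 difference of 0.26 ± 0.08 (adjusted p = 0.124). Neither passed the threshold of 0.05 after adjustment over all genes.

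The estimates varied among the subunits of the eEF1B complex, and none passed the threshold by edgeR on all pools. Eef1b2 (chr1:63176825-63180486, plus strand), the eEF1B alpha subunit, had RNA of 429, 372 and 387 CPM in wild type and 525, 428 and 492 CPM in the mutant, so that mutant pool 2 fell just under the highest wild-type pool. Its RNA difference of 0.28 ± 0.08 on the log2 scale (adjusted p = 0.123) was the largest of the 10. Its footprints were 221, 237 and 207 CPM in wild type and 238, 255 and 298 CPM in the mutant, with no overlap and a log2 difference of 0.25 ± 0.09 (adjusted p = 0.164). Eef1d (chr15:75894205-75909556, minus strand), the eEF1B delta subunit, showed the largest footprint difference of the 9 genes. Its footprints were 157, 161 and 159 CPM in wild type and 215, 179 and 219 CPM in the mutant, a log2 difference of 0.36 ± 0.08 (adjusted p = 0.0855). Its RNA was 142, 133 and 133 CPM in wild type and 158, 139 and 168 CPM in the mutant, where the groups overlapped (0.19 ± 0.08, adjusted p = 0.226). Eef1g (chr19:8967041-8978479, plus strand), the gamma subunit that anchors the complex, was nearly level in both assays. Its RNA means were 59.6 ± 6.36 and 62.6 ± 2.70 CPM and its footprint means 48.7 ± 4.39 and 46.4 ± 5.92 CPM in wild type and mutant (log2 0.07 ± 0.09 and −0.07 ± 0.11; adjusted p = 0.717 and 0.731), and both pairs of groups overlapped.

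Eef2 (chr10:81176631-81182498, plus strand), the translocase, held the most counts of the set. Its RNA was 2560.1, 2523 and 2455 CPM in wild type and 2751, 2585 and 2644 CPM in the mutant, higher in each mutant pool by a small amount (log2 0.08 ± 0.07, adjusted p = 0.612). Its footprints were 1898, 1828 and 1881 CPM in wild type and 2360.1, 2007 and 1984 CPM in the mutant (0.18 ± 0.08, adjusted p = 0.231). The mutant pools lay above wild type here too, and mutant pool 1 stood highest. Eef2k (chr7:120842831-120907450, plus strand), the kinase that inhibits eEF2, went the other way in RNA. Its RNA was 29.8, 30.9 and 28.8 CPM in wild type and 26.1, 26.9 and 24.6 CPM in the mutant, lower in each mutant pool (−0.21 ± 0.09, adjusted p = 0.254). Its footprints overlapped between the groups, at 16.7 ± 0.723 CPM in wild type and 15.6 ± 2.37 CPM in the mutant (−0.09 ± 0.13, adjusted p = 0.692).

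Pabpc1 (chr15:36595661-36609668, minus strand), the main cytoplasmic poly(A)-binding protein, had the smallest adjusted p of the 10 in RNA. Its RNA was 446, 437 and 399 CPM in wild type and 530.2, 491 and 498 CPM in the mutant, without overlap (log2 0.24 ± 0.07, adjusted p = 0.106). Its footprints, 292, 285 and 303 CPM in wild type and 322, 291 and 336 CPM in the mutant, did overlap (0.11 ± 0.07, adjusted p = 0.39). Tpt1 RNA in the trimmed coding region was 28.4, 13.2 and 13.5 CPM in wild type and 21.8, 10.8 and 14.4 CPM in the mutant. These few counts spread widely within both groups, with pool 1 highest in each (−0.19 ± 0.29, adjusted p = 0.784). Over the whole coding region, untrimmed, the sign of the Tpt1 RNA difference was the opposite, 0.28 (adjusted p = 0.239).

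Among the release factors, Gspt1 had small positive estimates in both assays and Etf1 had estimates of opposite sign. Gspt1 (chr16:11219292-11254325, minus strand), eRF3, had RNA of 239, 219 and 228 CPM in wild type and 256, 254 and 244 CPM in the mutant, with no overlap (0.14 ± 0.06, adjusted p = 0.275). Its footprints differed little, at 364, 365 and 358 CPM in wild type and 386, 368 and 388 CPM in the mutant, each above wild type (0.07 ± 0.06, adjusted p = 0.512). Etf1, eRF1, on chromosome 18, had RNA of 189, 181 and 171 CPM in wild type and 199, 215 and 198 CPM in the mutant (0.18 ± 0.06, adjusted p = 0.183). Its footprints were 270, 252 and 247 CPM in wild type and 192, 246 and 253 CPM in the mutant (−0.15 ± 0.10, adjusted p = 0.391). The RNA groups of Etf1 did not overlap and the footprint groups did, with mutant pool 1, the pool richest in erythroid markers, far below the other 5; the part of these markers in the result was not tested. Without mutant pool 1 the edgeR footprint difference of Etf1 was −0.04 (adjusted p = 0.783).

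**Figure D3:**
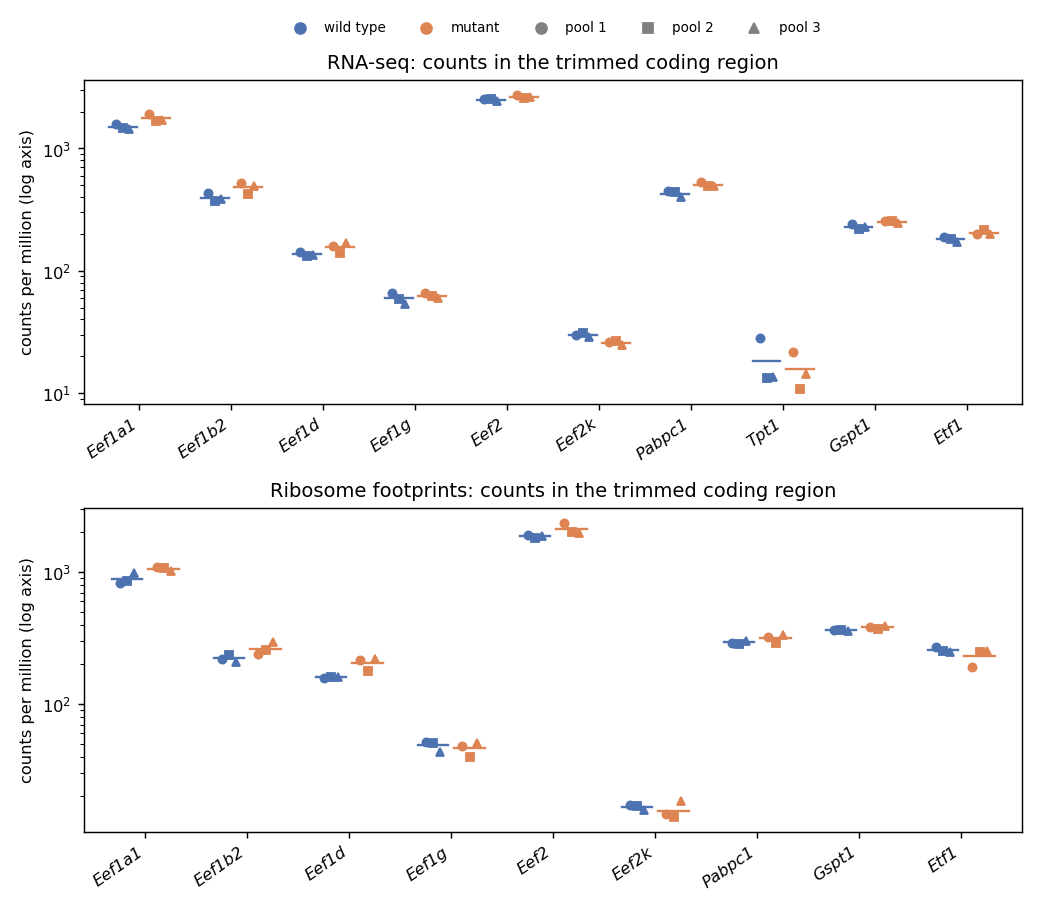
CPM in the trimmed coding region (log axes) for each gene in each of the 6 RNA libraries and 6 footprint libraries, by genotype, with short lines at group means. The genotypes lie close together beside the spread between genes, and Tpt1 is not drawn for footprints because it held 2 counts.

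Translational efficiency, the footprint difference beyond the RNA difference, was tested by an interaction term, genotype by assay, on the 12 libraries. Etf1 had the largest estimate of the 9 genes. Its log2 footprint to RNA ratio was 0.60, 0.57 and 0.63 in the wild-type pools and 0.07, 0.30 and 0.45 in the mutant pools, lower in each mutant pool (interaction −0.32 ± 0.13, adjusted p = 0.442; adjusted p = 0.0878 with the pool as a block). Mutant pool 1 was the lowest. With offsets for GC content the Etf1 estimate shrank to −0.05 (adjusted p = 1.00). Eef1d had the opposite pattern, at 0.24, 0.37 and 0.36 in wild type and 0.56, 0.47 and 0.49 in the mutant (0.18 ± 0.12, adjusted p = 0.643), and its estimate shrank to 0.03 with GC offsets (adjusted p = 1.00). In these 2 genes the pools of the genotypes did not overlap, which 22.8% of 13893 genes showed. The other 7 lay between −0.13 (Eef1g) and 0.13 (Eef2k). In all, 0 of 9 passed the threshold by edgeR, by DESeq2, by limma-voom or with the pool as a block, and 1 of 9 had an unadjusted p under 0.05, where 0.0% and 9.82% of all genes did by edgeR; with the block 125 genes passed in the series, none of them in this set.

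Within wild type, both release factors had more footprints than the average mRNA of the same RNA count, with log2 ratios of 0.76 ± 0.06 for Gspt1 and 0.60 ± 0.09 for Etf1 (SE; edgeR adjusted p = 2.09e-08 and 2.56e-05). Eef1d was also above the average, at 0.32 ± 0.08 (adjusted p = 0.00306). Below it lay Eef2k at −0.75 ± 0.10, Eef1b2 at −0.74 ± 0.10, Eef1a1 at −0.65 ± 0.08, Pabpc1 at −0.45 ± 0.07 and Eef2 at −0.33 ± 0.08 (adjusted p = 1.23e-05, 6.45e-06, 3.54e-06, 3.97e-05 and 0.0012). Eef1g at −0.19 ± 0.10 did not pass (adjusted p = 0.104; 0.0246 with the pool as a block). The test called 8 of 9 genes, 3 higher and 5 lower, where 71.8% of all genes were called, 35.5% higher and 36.3% lower, so a call here is common.

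Footprints are shorter than the RNA fragments, and fewer of their windows were unique. The log2 ratio of the 50-base to the 30-base unique share was 1.17 for Eef1a1, 1.07 for Eef1g, 0.52 for Pabpc1, 0.35 for Eef2, 0.16 for Eef1d, 0.14 for Eef1b2, 0.11 for Gspt1 and 0 for Eef2k and Etf1. In Eef1a1, Eef1g, Pabpc1 and Eef2 it was larger than the negative estimate of footprints per RNA, and its part in those estimates was not tested. In Eef1b2 it was smaller than the estimate, and in Eef2k and Etf1 the sequence was unique at either length.

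**Figure D4:**
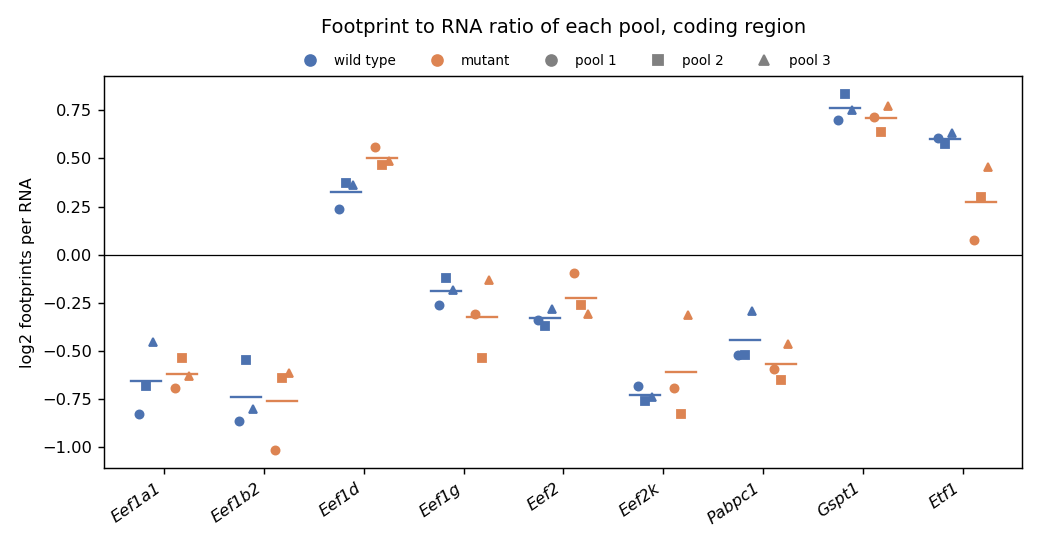
Log2 footprints per RNA in the coding region of each pool, wild type and mutant, for the 9 genes with coding footprints, with short lines at group means. Gspt1, Etf1 and Eef1d lie above 0 in every pool and the other 6 below it, and the Etf1 mutant pools lie under all 3 wild-type pools.

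The proportions between partners were also read from each library. Gspt1 and Etf1 form the release complex, and their wild-type footprints per base were in a ratio of 0.915, 0.981 and 0.982, close to equal. In the mutant pools the ratio was 1.36, 1.01 and 1.04, above each wild-type pool, and 1.36 belonged to mutant pool 1 (exact permutation test, two-sided, p = 0.1, the smallest that 3 against 3 allows). In RNA it was 0.859 ± 0.0415 in wild type and 0.835 ± 0.0345 in the mutant (SD, n = 3 each), with overlap. By the same test p was also 0.1 for Eef1a1 to Eef2 in RNA (1.12 ± 0.0354 and 1.25 ± 0.0597). So it was for Eef1b2 to Eef1g in footprints (9.26 ± 0.504 and 11.6 ± 1.54) and Eef1a2 to Eef1a1 in both assays. Larger values, 0.2 to 0.6, came from Eef1a1 to Eef2 in footprints, Eef1b2 to Eef1g in RNA and Eef1b2 to Eef1d in both. How often other gene pairs are apart was not counted. Eef1a2 was rare beside Eef1a1, the form used by most cells. Eef1a2 RNA was 16.4, 15.1 and 18.5 CPM in wild type and 6.56, 15.0 and 8.70 CPM in the mutant (log2 −0.74 ± 0.24, adjusted p = 0.14). Its footprints were 31.8 ± 3.40 and 22.2 ± 7.08 CPM. Mutant pool 2 sat near wild type in both assays. Summed neuron markers were also lower in mutant RNA, at 3686 to 4317 CPM against 4583 to 4662 CPM in wild type, and their part in the Eef1a2 values was not tested; in such bulk tissue fewer cells of a type and less RNA per cell cannot be told apart.

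Eef1d is transcribed in a long and a short form, and the long form, known from brain, adds an N-terminal part to the exchange factor. The transcript with the most counts encoded the long form (1983 coding bases), of which the final 846 bases are shared with a short form. Density of RNA counts in the 1137 additional bases was 22.1% ± 1.69 of that in the shared part in wild type and 20.2% ± 1.68 in the mutant. For footprints it was 19.0% ± 2.23 and 16.6% ± 2.78 (SD, n = 3), and the genotypes overlapped in both assays. The additional bases were unique throughout and 57.0% of windows of the shared part were, so that per unique window the wild-type shares were 12.3% for RNA and 10.7% for footprints. The kilobase level of Eef1d given above averages over both parts.

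The 5′ UTRs of these genes carried many footprints. In Tpt1, 10456 of the 10458 footprints on the transcript were counted there. For the other 9 genes, the 5′ UTR part of the wild-type footprint counts summed over 5′ UTR, coding region and 3′ UTR was 36.1% ± 0.434 in Pabpc1, 29.5% ± 1.65 in Eef1b2, 29.4% ± 0.925 in Eef2k and 21.5% ± 2.28 in Eef1a1 (SD, n = 3). Etf1 at 14.1% ± 0.556 and Gspt1 at 14.0% ± 0.282 were lower, Eef1d at 9.45% ± 0.836 and Eef2 at 8.58% ± 0.203 lower still, and Eef1g held 6.03% ± 0.885. The median over 11285 genes was 10.9% and the 90th percentile was 33.0%. All windows of these 5′ UTRs were unique among annotated transcripts, while those of the coding regions often were not, so the shares compare parts of unequal uniqueness. Genome sequence outside annotated transcripts was not looked up. Counts per unique window, summed over the wild-type pools, were 302 in the 5′ UTR and 614 in the coding region of Eef1a1, 39.0 and 66.1 in Eef1b2, and 2.44 and 87.7 in Eef1g. They were 43.6 and 36.4 in Pabpc1, 2.65 and 0.921 in Eef2k, and 309 and 121 in Eef2. Eef1d had 25.7 and 11.1, Gspt1 36.0 and 22.9, and Etf1 31.2 and 23.7. The coding value of Eef1d averages over its additional and shared parts. Its shared part held 14048 footprints over 466 unique windows, against 1981 over 77 in the 5′ UTR, so its order depends on the part taken. Per unique window of the whole coding region, boundary reads included, the 5′ UTR lay above the coding region in Pabpc1, Eef2k, Eef2, Eef1d, Gspt1 and Etf1. It lay below the coding region in Eef1a1, Eef1b2 and Eef1g. Wild-type RNA counts per unique 30-base window, too, were lower in the 5′ UTR of Eef1a1, Eef1b2 and Eef1g. They were 59.8 and 285 in Eef1a1, 7.01 and 25.9 in Eef1b2, and 0.396 and 28.4 in Eef1g. In RNA the 5′ UTR also lay below the coding region in Pabpc1, Gspt1 and Etf1, near it in Eef2k, and above it in Eef2 and Eef1d. A read across a boundary was counted in both parts, so a footprint over the start codon is also in the 5′ UTR count. Such reads made up at most 67.7% of wild-type 5′ UTR footprints in Tpt1, 59.3% in Eef2, 47.3% in Eef1d, 43.6% in Eef1b2 and 34.5% in Etf1, but 13.7% in Eef2k, 11.4% in Gspt1, 7.56% in Pabpc1, 0.131% in Eef1a1 and 0% in Eef1g. In Pabpc1, whose mRNA is known to bind its own protein in the 5′ UTR, most of these footprints lay wholly inside it. In wild-type RNA, reads across a boundary made up at most 84.6% of the 5′ UTR counts of Eef2 and 100% of those of Eef1d. Whether RNA of these genes lies higher in the 5′ UTR without such reads is therefore not shown. The order of Etf1 in footprints may rest on such reads as well.

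Footprint counts of the whole 5′ UTR were higher in each mutant pool than in each wild-type pool in 6 of the 10 genes, where 27.1% of 11285 genes were, and lower in 0, where 4.5% were. The mutant mean was 1.79 times the wild-type mean in Eef1g, 1.58 in Tpt1, 1.46 in Eef1a1, 1.39 in Eef1d, 1.35 in Eef1b2 and 1.17 in Eef2. Eef2k (1.08-fold), Pabpc1 (1.20-fold), Etf1 (1.21-fold) and Gspt1 (0.974-fold) overlapped.

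The number left wholly inside the 5′ UTR was then taken as its count less every boundary read of the transcript, those at the stop codon included, which makes it a minimum. By that minimum footprints were higher in each mutant pool than in each wild-type pool in 7 of the 10 genes, where 23.1% of 11285 genes were, and lower in 0, where 3.11% were. Tpt1 differed most, with 18.1, 21.9 and 21.3 CPM in wild type and 47.8, 88.8 and 47.5 CPM in the mutant. That is a 3.00-fold difference of means, and 2.33-fold without mutant pool 2, which was the highest; pools 1 and 3 were also above every wild-type pool. Eef1b2 had 73.2, 66.2 and 73.9 CPM in wild type and 105, 110.5 and 109.5 CPM in the mutant, and Eef1a1 had 265, 214 and 248 CPM against 395, 292 and 376 CPM. The groups of Eef1d (1.88-fold), Eef1g (1.79-fold), Eef2 (1.26-fold) and Eef2k (1.14-fold) were also apart. Pabpc1 (1.17-fold), Etf1 (1.19-fold) and Gspt1 (0.962-fold) overlapped. Over the 6890 genes with at least 1 such CPM in wild type the median was 1.20-fold, so higher mutant values inside 5′ UTRs were common in the series. Eef2k was apart only by this minimum. With 3 against 3 no permutation p can go below 0.1. RNA counts of the whole 5′ UTR of Tpt1, Eef1a1 and Eef1b2 were 1.23, 1.18 and 1.18 times the wild-type level in the mutant. In the other genes this ratio was 1.20 in Pabpc1, 1.16 in Eef1d and Gspt1, 1.13 in Etf1, 1.08 in Eef2, 1.03 in Eef1g and 0.698 in Eef2k. By the minimum used for footprints, RNA wholly inside the 5′ UTR was 1.19 times wild type in Tpt1, 1.20 in Eef1a1 and 1.00 in Eef1b2. It was 1.54 in Etf1, 1.42 in Eef2, 1.21 in Eef1g, 1.20 in Pabpc1, 1.13 in Gspt1 and 0.795 in Eef2k, and Eef1d had 0 such RNA reads. In Eef2, Etf1, Pabpc1 and Gspt1 this RNA ratio was above the footprint ratio. The RNA groups were apart by that minimum in Eef1a1 and Pabpc1, higher in the mutant, and overlapped in the other genes.

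**Figure D5:**
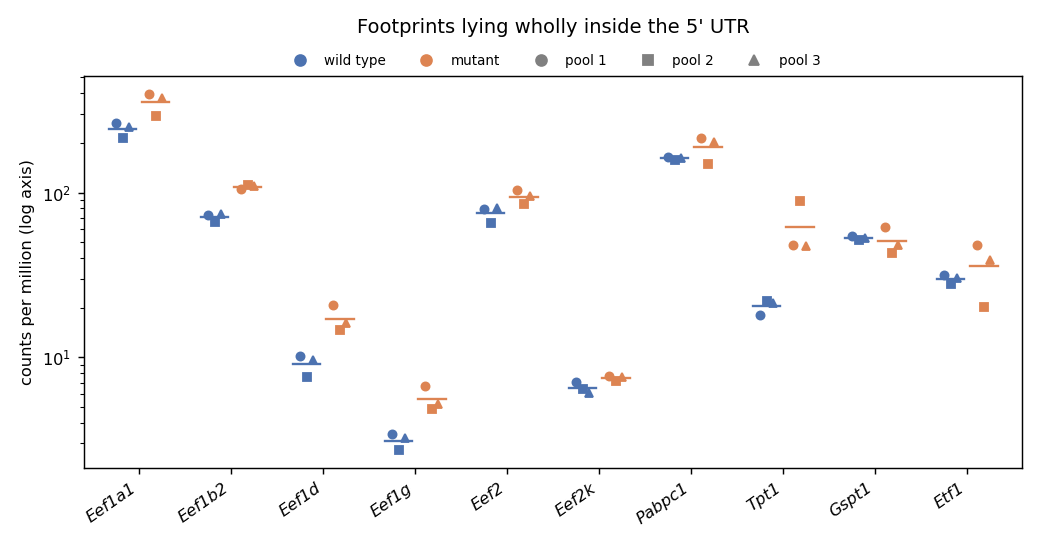
Minimum CPM of footprints lying wholly inside the 5′ UTR, after every boundary read was taken away (log axis), for each gene in each footprint library, by genotype, with short lines at group means. The mutant pools lie above all wild-type pools in 7 of 10 genes, with the widest gap in Tpt1, and overlap in Pabpc1, Gspt1 and Etf1.

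As a share of the counts summed over its 3 parts, the 5′ UTR was apart in 1 of 9 genes, higher in the mutant in Eef1g, where 24.5% of 11285 genes were. Its share went from 6.03% to 10.7% ± 1.45. For Tpt1 no share is given, since its coding counts are nearly all reads over the start boundary. In 3′ UTRs footprints were scarce, with wild-type shares of 0% in Tpt1 to 2.83% ± 0.222 in Eef1d, beside a median of 1.06% over 11422 genes. RNA of the same 3′ UTRs was plentiful in the long ones: 51.6% ± 2.58 of Etf1 RNA counts and 36.5% ± 2.85 of Eef2k RNA counts lay there in wild type. The Eef1d share was lower without overlap, at 1.76% ± 0.173 in the mutant, a direction in which 3.98% of genes were apart. The 3′ UTR of Eef1d has 63 bases, and a read over the stop codon is counted in it too. Reads over either boundary of Eef1d came to 938 in wild type and 285 in the mutant, beside 586 and 159 3′ UTR counts. Their part in the Eef1d share was not tested. Per unique window its 3′ UTR held 17.2 wild-type footprints and its coding region 11.1. The Eef2 share was higher without overlap, a direction in which 12.4% of genes were apart. The Eef2 mean was 0.0404% in wild type, and that of 0.289% in the mutant rested on mutant pool 2, with 217 counts against 19 and 22 in the others.

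Of 19 tested other elongation factors and their modifying enzymes, 0 passed in RNA, footprints or efficiency by edgeR, with median log2 differences of 0.07 in RNA and 0.08 in footprints. Vars, valyl-tRNA synthetase, which binds eEF1B, had the smallest footprint p of that list, at 306 ± 13.4 CPM in wild type and 413 ± 61.9 CPM in the mutant (0.43 ± 0.10, adjusted p = 0.0869). Dohh, the last enzyme of hypusine synthesis on eIF5A, followed at 24.3 ± 0.585 and 32.1 ± 5.59 CPM (0.40 ± 0.12, adjusted p = 0.117), and Eif5a itself at 318 ± 20.8 and 390 ± 39.7 CPM (0.29 ± 0.09, adjusted p = 0.121). Of 16 other termination, recycling and rescue factors 0 passed. Abce1, the ATPase that splits ribosomes after termination, had the smallest RNA p, at 174 ± 7.94 and 207 ± 2.30 CPM (0.25 ± 0.06, adjusted p = 0.0774). Zfp598, a sensor of collided ribosomes, had the smallest footprint p (0.27 ± 0.08, adjusted p = 0.11).

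Of the other poly(A)-binding proteins and their partners 0 of 13 passed in RNA and 0 of 12 in footprints. Paip2, an inhibitor of Pabpc1, had footprints of 205 ± 12.4 CPM in wild type and 152 ± 26.7 CPM in the mutant (−0.43 ± 0.12, adjusted p = 0.108). Of 11 nonsense-mediated decay factors, which read out faulty termination, 0 passed. Upf3b had the smallest footprint p of the elongation, termination, poly(A)-binding and decay lists, at 60.0 ± 3.28 and 45.8 ± 3.39 CPM (−0.39 ± 0.08, adjusted p = 0.0789), and in efficiency it was −0.43 ± 0.12 (adjusted p = 0.43), past the threshold in 1 of 16 alternatives, the fit with the pool as a block. Upf2, its binding partner, had −0.27 ± 0.07 in footprints (adjusted p = 0.0882). Of 10 regulators of elongation in the mTORC1 and AMPK pathways, several of which act on Eef2k, 0 passed.

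Ribosomal protein mRNAs and the other TOP mRNAs share their TOP start with several of the set. Of 79 tested ribosomal protein genes 1 (Rps20, log2 0.51 ± 0.08, adjusted p = 0.0382) passed as higher in RNA, with a median of 0.14; it passed in 10 of 16 alternatives and not with the pool number as a block (adjusted p = 0.0539). In footprints 2 of 46 tested passed as higher (Rps21, 0.67 ± 0.08, adjusted p = 0.0157; Rps10, 0.58 ± 0.08, adjusted p = 0.0259), with a median of 0.28. They passed in 11 and 10 of 16 alternatives, and with the block Rps10 did not (adjusted p = 0.0627). Of 11 other TOP mRNAs Npm1 passed in RNA (0.43 ± 0.08, adjusted p = 0.0495) and 0 passed in footprints, with medians of 0.16 and 0.07. Npm1 passed in 7 of 16 alternatives and not with the block (adjusted p = 0.0539). The genes described here had medians of 0.16 in RNA and 0.11 in footprints.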

How the data were processed

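Per the submitters' processing notes, reads were handled with cutadapt, STAR and bedtools on mm10; for tool versions, strand and reads that match several genes, the setting is not given in the sources used here. Raw counts were deposited by the authors, per transcript part, for 96 lane files of 12 libraries (2 runs of 4 lanes each), in which the counted coding region leaves out 15 codons at the start and 5 at the stop. A read over a boundary is counted in both parts. Of 122941 transcripts, 121271 matched GENCODE vM21 with version, 1522 without it and 148 matched no gene; the last held 0.304% of counts and were left out. Each gene was represented by its transcript with the highest total, and lanes were summed per library. The 4 run 1 lanes of mutant footprint pool 1 were left out: they held counts on at most 3 of 20 chromosomes, the other 92 lanes on all 20.

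CPM are counts per 1000000 coding counts, with library sizes scaled by TMM. edgeR 4.0.16 (R 4.3.3; quasi-likelihood test, TMM, filterByExpr with minimum count 10 and minimum total 15, Benjamini-Hochberg over all genes tested, threshold 0.05) gave all adjusted p-values unless another tool is named; SE is the log2 estimate divided by the square root of F. RNA and footprints were fitted on 6 libraries each, and efficiency and the wild-type ratio on all 12. Replicate spread beyond counting error (edgeR's biological coefficient of variation) came to 8.18% for RNA, 9.97% for footprints and 9.19% with both together. Pool log2 ratios used 0.5 CPM as prior. The 5′ UTR background used genes with at least 50 footprints in each library. Single values were compared by an exact two-sided permutation test. Each comparison was repeated under 16 alternatives, among them DESeq2 1.42.0 and limma-voom (limma 3.58.1). RNA and footprints of a pool come from the same cells per the labels' protocols, and their deviations from group means correlated at 0.297 to 0.634 over 11243 genes, so the pool entered as a block in an alternative fit of efficiency and of the wild-type ratio. Wild-type and mutant pools of a number correlated at −0.142 to 0.150 and share only that number; a fit with it as a block is an alternative for RNA and footprints. All 10 genes are named, with Eif3c as the check of genotype and, of each other list, up to 4 genes of smallest p per comparison. The genes and lists were chosen with earlier results of these data known.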

Additional observations from a re-analysis of the deposited data

Results flagged for a closer look

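Eef2 had 25472 footprint counts in the 4 truncated lanes of mutant pool 1, which no comparison used, beside 26491 in the 4 complete lanes of that pool; the other 9 genes had 0 counts in the truncated lanes. With all lanes summed, the Eef2 footprint difference was 0.60 on the log2 scale in place of 0.18.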

How the results depend on the processing

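Over the genes described, 150 of 160 alternative RNA values, 140 of 144 footprint values, 134 of 144 efficiency values and 140 of 144 wild-type ratio values kept their direction and side of the threshold. For RNA the alternative with all lanes used the same counts as the main fit, so its values could not differ. The number of genes past the threshold in RNA, 43 in all, was 408 with DESeq2, 462 with no filter, 86 with run 2 only, 22 with whole coding counts and 2 with GC offsets. In footprints it was 34, and 836 with DESeq2, 130 with limma-voom, 243 with no filter, 9 with all lanes, 105 with run 2 only and 59 with whole coding counts. In efficiency it was 0, and 20 with DESeq2. DESeq2 called 3 of the 10 genes in RNA and 1 in footprints. Leaving out 1 pool gave 1 to 1521 genes in RNA, 8 to 2335 in footprints (both highest without mutant pool 2), 0 to 1 in efficiency and 8614 to 10472 in the wild-type ratio; of the genes described it gave 0 to 3, 0 to 1, 0 and 8. With the pool number as a replicate block 3 genes passed in RNA, 39 in footprints and 125 in efficiency (in RNA and footprints the pools share only the number); the block added Eef1g (adjusted p = 0.0246) in the wild-type ratio and changed no other call of the 10. Eef1g also passed there with whole coding counts (adjusted p = 0.0405) and GC offsets (0.0252), and Eef2 did not with all lanes (0.223).

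Signs reversed for small estimates. Tpt1 RNA was 0.019 with run 2 only and 0.28 with whole coding counts, and ranged from −0.52 to 0.26 when 1 pool was left out. Footprints of Etf1 were 0.010 with GC offsets, and those of Eef1g ranged from −0.15 to 0.024 without 1 pool. Efficiency of Eef1b2 was 0.0047 with run 2 only, 0.035 with whole coding counts and 0.086 with GC offsets; with GC offsets Eef2 was at −0.0057 and Gspt1 at 0.043. Without 1 pool efficiency ranged from −0.056 to 0.13 in Eef1a1, from −0.097 to 0.11 in Eef1b2 and from −0.033 to 0.24 in Eef2k. The cause of these shifts was not tested. Depth limits Eef2k most of the 9 genes, with 164 to 1018 footprints in a library; Tpt1, with 2, had no unique coding window.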
